A study of Mus musculus with 12 samples.

Results

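In vitro differentiated hepatocytes (Diff. hepatocytes) were compared with the hepatoblasts from which such cultures are started, gene by gene across the transcriptome. The comparison took in every gene with more than 10 counts in at least 1 of the 8 libraries, which kept 17256 of the 53715 genes listed and 8 of the 12 samples. Both groups came from C57BL/6JOlaHsd mouse embryos at E14.5 and held 4 biological replicates each. Hepatoblasts were primary liver cells isolated with an antibody to the surface protein Dlk1 from pooled embryonic livers and processed directly, so that a library stands for a pool and not for 1 embryo. Diff. hepatocytes were hepatoblasts of the same isolation age kept for 4 days in a differentiation medium with dexamethasone, a synthetic glucocorticoid, serum, insulin, transferrin and selenium, and Matrigel, a basement membrane extract. No group carried a transgene or a deletion. Because each Diff. library had passed through isolation, plating, medium and time together, the parts that these steps played cannot be told apart. Libraries of mature hepatocytes from mice of 8 to 12 weeks entered the model for its estimate of spread and are not described.

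Hepatoblasts are the bipotent progenitors of the embryonic liver, which give rise to hepatocytes and to the cells of the bile ducts. At this age the liver is also the main site of blood formation, and hepatoblasts divide quickly among maturing red cells. On becoming hepatocytes they leave the cell cycle, take up the secretion of plasma proteins, the handling of nitrogen, glucose, lipids and foreign compounds, and polarise around bile canaliculi.

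Between 21523329 and 25216977 reads were counted on genes in the hepatoblast libraries and between 19581551 and 22026087 in the Diff. libraries. Levels are given in CPM, the counts of a gene relative to all counts of its library. Library sizes were adjusted by TMM scaling in edgeR. Differences are log2 fold changes of Diff. hepatocytes over hepatoblasts from the edgeR fit, with its default prior count. Log2 CPM with a prior count of 2 entered a permutation test and the correlations between libraries, not these fold changes. A gene was called higher or lower at an adjusted p under 0.01 from edgeR's quasi-likelihood test and an absolute log2 fold change over 1, and "rose" and "fell" are used for such genes only. Values in parentheses after a gene are log2 fold changes. Markers of the hepatic lineage were measured in all 8 libraries, and the labels could be checked against them: Hnf4a (0.60), Krt8 (0.26) and Krt18 (0.69) were not called, and Dlk1, the marker of the isolation, fell by 5.22. Replicate 1 of the hepatoblasts stood apart from the other 3 in markers of blood cells and of dividing cells. The summed level of 30 erythroid genes was 4977 CPM in that library and 1015, 805 and 593 CPM in the others, and the summed level of 54 mitotic genes was 5205 against 4051, 3741 and 3653 CPM. Among Diff. hepatocytes, replicate 1 was the highest in mitotic genes, with 534 CPM against 284 to 303 CPM. Each count below was computed again without either library, and the values are given where they move by over 1.5 times.

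The change was wide and nearly even in its directions. Of the 17256 genes, 2634 (15.3%) were called higher in Diff. hepatocytes and 2485 (14.4%) lower, together 5119 (29.7%). The split depends on the scaling. With library totals in place of TMM, 1963 genes were called higher and 3612 lower, a share of higher calls of 35.21% instead of 51.46%, and the median of all genes moved by -0.325. With totals without the 50 most abundant genes in each library, the median moved by -0.121 and 2355 and 2830 genes were called. Changes below are relative to the TMM scale, on which the median over all genes was -0.02. A log2 fold change beyond 3 in size was reached by 726 genes that rose and 784 that fell, and one beyond 6 by 133 and 92. The 4 values of each group lay apart for 10112 genes (58.6%), and 61 of the called genes did overlap.

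The genes that rose took a larger part of the counts than before, and those that fell a smaller one. Both directions follow from choosing the genes by their change in these same libraries. The genes that rose held 9.731% to 11.64% of all counts on genes in hepatoblasts and 36.35% to 37.38% in Diff. hepatocytes. The genes that fell went from 19.18% to 20.03% down to 4.616% to 5.236%. Among the genes that rose was the ribosomal RNA gene CT010467.1 (1.98). It took at most 487883 counts in any hepatoblast library and up to 1201600 in a Diff. library. The shares without this gene were not computed. Among the genes tested, 263 were at 3 counts or fewer in each hepatoblast library, and 247 of these were called higher. In the other direction, 555 genes were at 3 counts or fewer in each Diff. library, and 362 of them were called lower. Such genes passed the filter of more than 10 counts only through the other group. The direction of their change was therefore fixed in advance. Of the 25 genes with the largest falls at a mean of at least 10 CPM, 13 were erythroid markers, and of the 25 with the largest rises 6 were cytochromes P450.

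**Figure D1:**
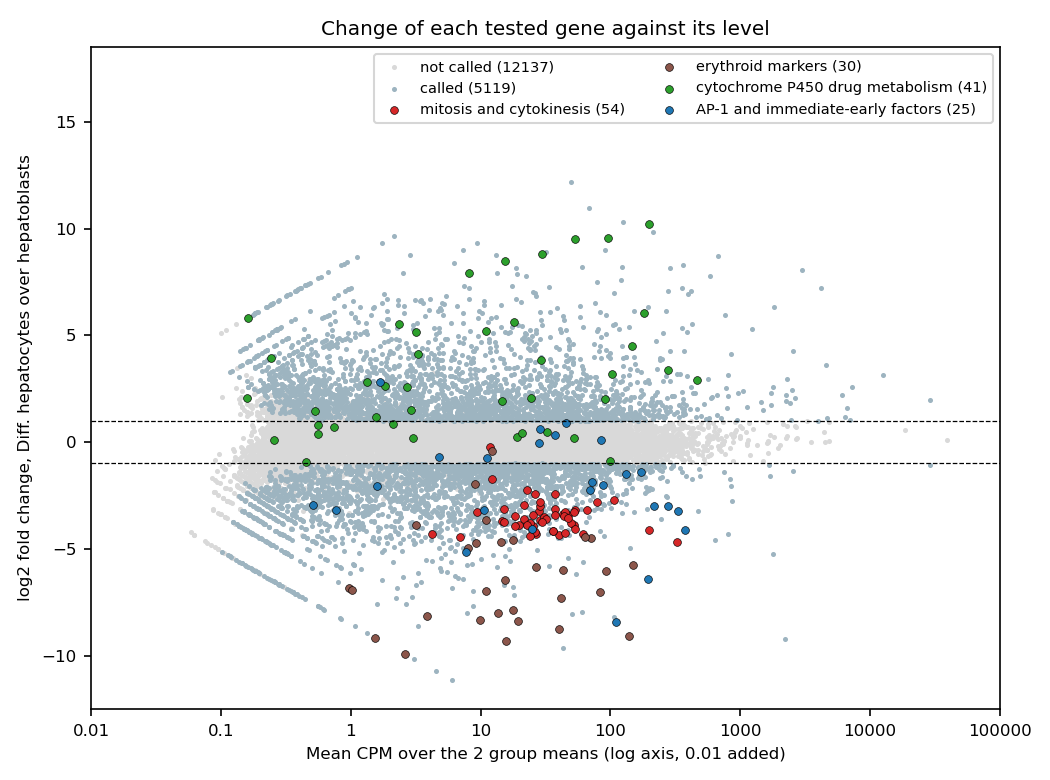
Log2 fold change of Diff. hepatocytes over hepatoblasts (vertical axis) against the mean CPM of the group means (horizontal log axis) for the 17256 genes tested, 1 point a gene, with dashed lines at the fold change threshold. Mitotic, erythroid and most immediate-early genes lie below the lower line, cytochromes P450 mostly above the upper one.

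The genes were read through 47 lists of pathways and cell types, with 1317 different tested genes, and through 52 families defined by symbol. By theme, 152 of 344 tested entries of metabolism were called higher and 27 lower, with a median log2 fold change of 0.70. For secreted proteins the counts were 59 and 19 of 135 (median 0.77). Lists of the cell cycle, chromatin and nucleotide supply stood the other way, with 16 higher and 132 lower of 239 (median -1.36), as did markers of other cell types, with 20 and 75 of 176 (median -1.33). Regulators were mixed, with 59 higher and 83 lower of 258, and lists of cell structure had 50 higher and 7 lower of 170. The lists leave out 4424 of the called genes.

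**Figure D2:**
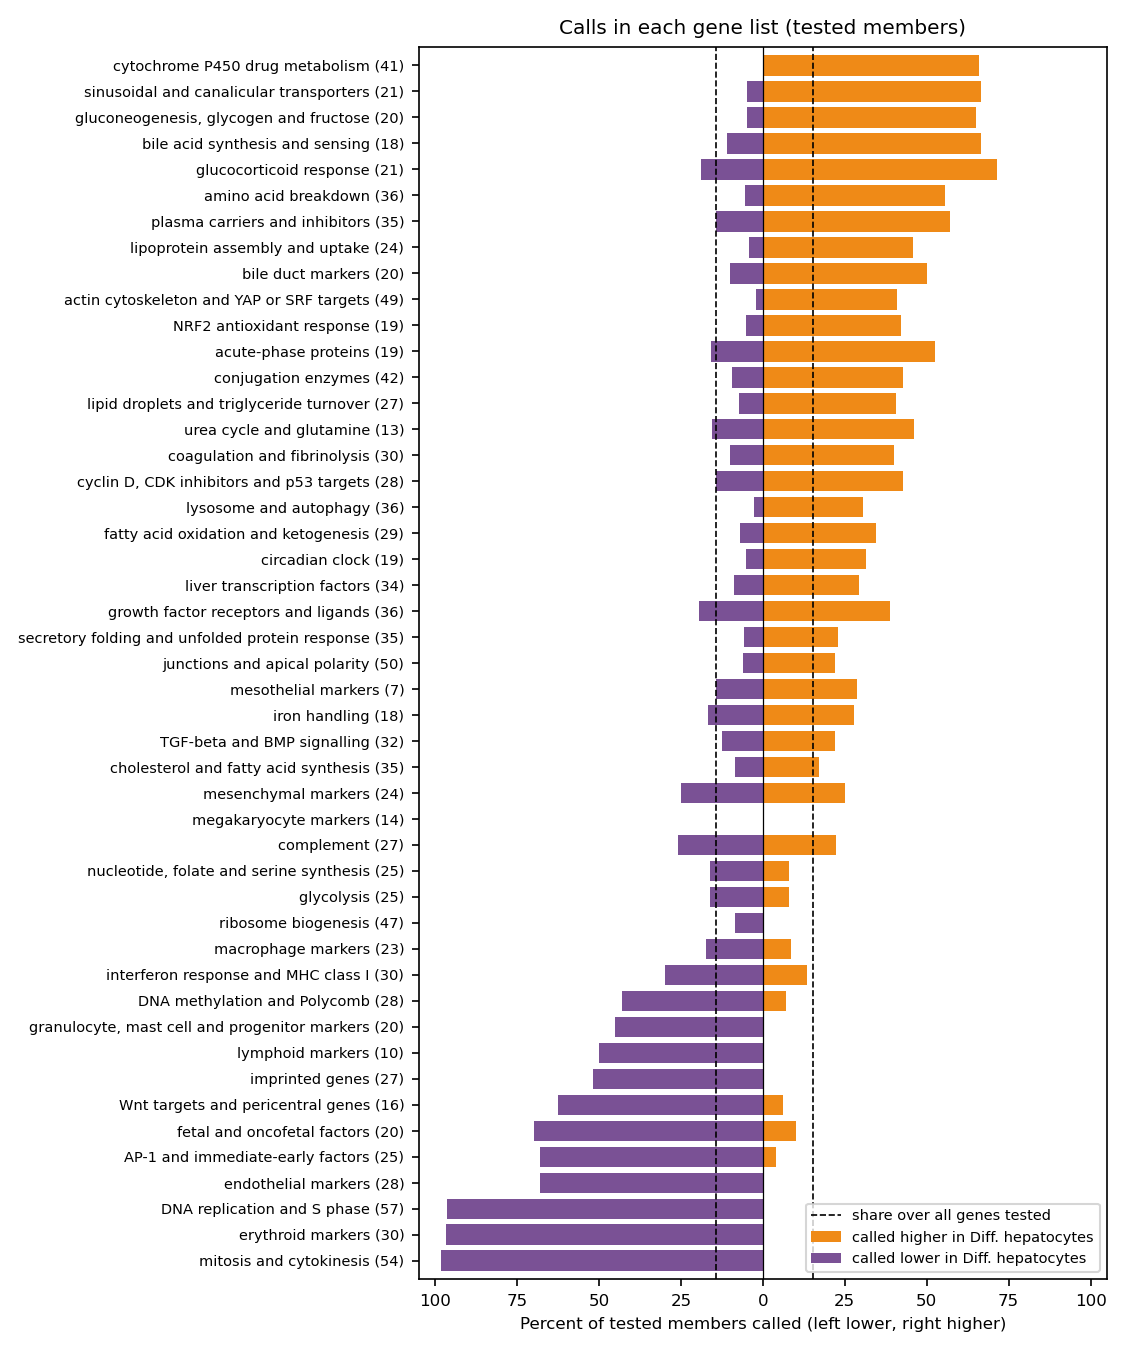
Percent of the tested members of each of the 47 lists (number in brackets) called higher (orange, to the right) or lower (purple, to the left) in Diff. hepatocytes, with dashed lines at the shares over all genes tested, 15.3% and 14.4%. Mitosis, erythroid and replication lists reach 96.5% to 98.1% lower, and glucocorticoid, transporter, bile acid, P450 and gluconeogenesis lists 65.0% to 71.4% higher.

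Genes of proteins that the liver secretes into plasma changed at high levels. Among plasma carriers and protease inhibitors, 20 of 35 tested members rose and 5 fell, with a median log2 fold change of 1.60. Serpina3n (ENSMUSG00000021091, chromosome 12 from 104406729 to 104414329 of GRCm38), an inhibitor of serine proteases of the acute phase, measured 2.66, 3.18, 3.18 and 3.6 CPM in hepatoblasts replicates 1 to 4 and 1439, 1454, 1207 and 1266 CPM in Diff. hepatocytes. It rose by 8.73 (standard error, SE, 0.23, edgeR adjusted p = 2.75e-11), from a trace to an abundant message in each of the 4 cultures. The exact two-sided permutation test over the 70 assignments of the 8 libraries gave p = 0.0286, the smallest that 4 libraries against 4 allow. Any gene whose groups lie apart reaches this p, so it adds nothing particular to Serpina3n. Fetub (chromosome 16 from 22918334 to 22939778), a fetuin that inhibits metalloproteases, went from 3.11, 4.93, 5.34 and 5.94 CPM to 720.5, 718, 690.5 and 712 CPM and rose by 7.20 (SE 0.21, edgeR adjusted p = 4.22e-11). Other carriers that rose were Azgp1 (7.77), Hrg (5.85), the thyroxine-binding globulin Serpina7 (3.19), the vitamin D-binding protein Gc (2.97) and the selenium carrier Selenop (1.85).

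Albumin and alpha-fetoprotein, markers of the adult and the fetal liver, changed little beside these. Alb (chromosome 5 from 90460897 to 90476602), which encodes albumin, measured 27619, 34850.0, 40804 and 46959 CPM in hepatoblasts and 38481, 36906, 41715 and 43402 CPM in Diff. hepatocytes, so that the groups overlapped, and its log2 fold change was 0.10 (SE 0.20, edgeR adjusted p = 0.691). Afp (chromosome 5 from 90490737 to 90508907), the fetal relative of albumin, measured 27435, 39868, 42931 and 46286 CPM in hepatoblasts and 17865, 15919, 20086 and 20381 CPM after culture. It fell by 1.08, with groups that did not overlap, and without hepatoblasts replicate 4 the value of -0.99 was no longer called. Carriers of steroid hormones fell. Serpina6 (chromosome 12 from 103646630 to 103657212), the corticosteroid-binding globulin, measured 3136, 4384, 5072 and 5061 CPM in hepatoblasts and 7.28, 5.24, 8.46 and 8.32 CPM in Diff. hepatocytes, a log2 change of -9.24 (SE 0.43, edgeR adjusted p = 2.36e-09). Shbg (chromosome 11 from 69614804 to 69617905), the carrier of sex steroids, fell from 56.9, 94.2, 98.3 and 92.5 CPM to 0.0431, 0.258, 0 and 0.0984 CPM (-9.65, SE 0.36, edgeR adjusted p = 3.94e-10, and -10.73 without Diff. hepatocytes replicate 2). The chemotactic protein Lect2 (-6.16), the IGF carrier subunit Igfals (-2.05) and Itih2 (-1.33) fell too.

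Acute-phase genes, which hepatocytes induce in inflammation, moved both ways. Of 19 tested members 10 rose, among them Orm1 (8.98), Lcn2 (5.54), Orm2 (4.68), the pentraxins Apcs (4.29) and Crp (2.44), Saa3 (3.55) and the iron hormone hepcidin, Hamp (3.56). Hamp varied between cultures, at 219, 36.2, 145 and 47 CPM, against 9.72, 7.52, 9.71 and 11 CPM in hepatoblasts. The 3 members that fell were the metallothioneins Mt1 (-2.73) and Mt2 (-3.28) and the feedback inhibitor of cytokine signalling Socs3 (-4.96), while Saa1 (0.75) and Saa2 (-1.31) were not called and were at 0.04 and -2.52 without Diff. hepatocytes replicate 1. In coagulation, 12 of 30 members rose, among them the 3 fibrinogen chains Fgb (2.60), Fga (2.22) and Fgg (2.09), tissue factor, F3 (2.85), and the plasminogen activators Plat (2.56) and Plau (2.18). Without Diff. hepatocytes replicate 1 the value of Plat was 1.97. Factor V, F5 (-1.16), fell. Complement moved both ways, with 6 of 27 members higher (22.2%, against 15.3% over all genes) and 7 lower (25.9%, against 14.4%). C4b (5.94) and Mbl2 (2.24) rose, and the late components C6 (-2.93), C9 (-1.95) and C8g (-1.50) and the lectin Mbl1 (-2.66) fell. C4b shares 22.7% of its 75-base sequences with another gene, so its value is uncertain by what the counting assigned to each copy.

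Apolipoproteins, the protein parts of lipoprotein particles, rose in 11 of 16 cases and fell in 2. In the list of lipoprotein assembly and uptake, which also holds receptors and lipid-loading factors, 11 of 24 genes rose. Apoa4 (chromosome 9 from 46240696 to 46243459) was at 0.128, 0.208, 0.193 and 0.231 CPM in hepatoblasts and at 112, 479, 171 and 237 CPM in Diff. hepatocytes. It rose by 10.32 (SE 0.55, edgeR adjusted p = 7.66e-09) and varied by several fold among the cultures. Its neighbours Apoa1 (1.05), Apoc3 (3.98) and Apoa5 (5.96) and the next gene, Zpr1, also rose, which made a run of 5 adjacent called genes on chromosome 9 from 46228580 to 46282643. Apoa1 and Zpr1 lay close to the threshold. Library totals called neither, and Apoa1 was not called without hepatoblasts replicate 1 or Diff. hepatocytes replicate 2, at 0.95 and 0.97. Zpr1 was not called without hepatoblasts replicate 3 or 4 or Diff. hepatocytes replicate 2, 3 or 4, at 0.96 to 0.99. The scaffold of secreted particles, Apob (0.03), its loading factor Mttp (0.40) and the receptor Scarb1 (0.55) were not called, and Apom (-1.24) fell.

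**Figure D3:**
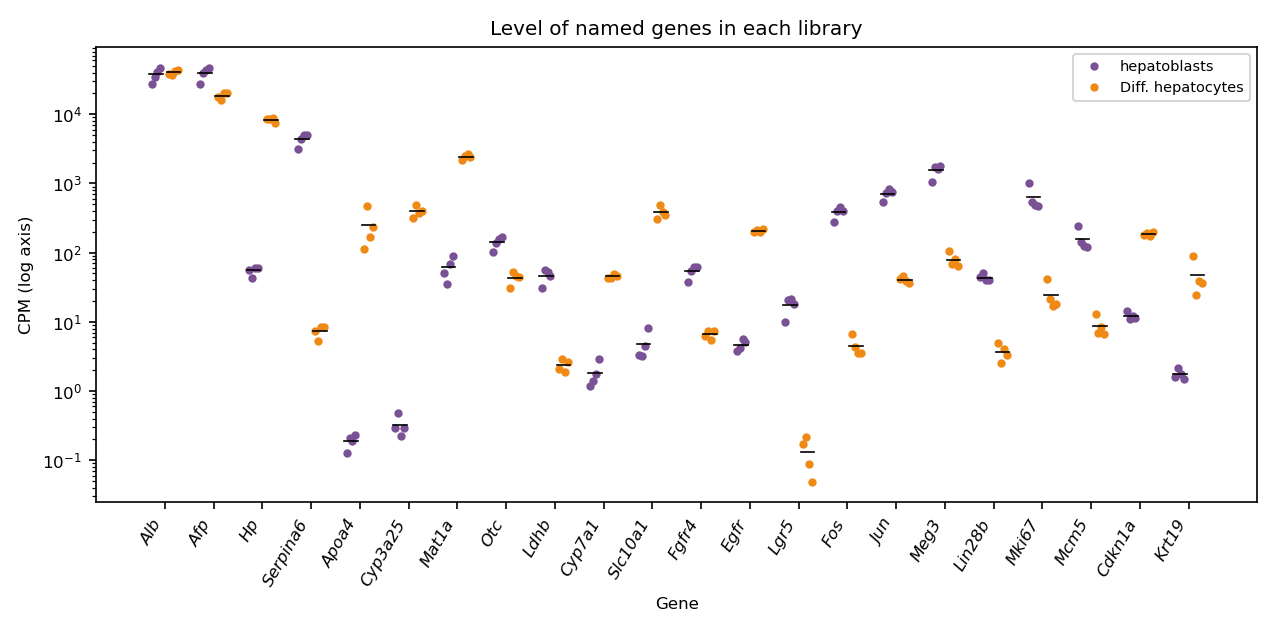
CPM of 22 named genes on a log axis, 1 point a library, with 4 hepatoblast libraries (purple) and 4 Diff. libraries (orange) a gene and a bar at each group mean. The groups overlap for Alb and lie apart for the other 21 genes. The rule for naming called genes asked for groups that lie apart, so this was largely set by the choice of genes. Over all genes tested the groups lay apart for 58.6%.

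Enzymes of nitrogen and amino acid metabolism were gained in large part. Of 36 tested genes of amino acid breakdown, 20 rose and 2 fell. Mat1a (chromosome 14 from 41105035 to 41124412), which makes S-adenosylmethionine in the adult liver, measured 50.6, 35.3, 68.1 and 90.1 CPM in hepatoblasts and 2144, 2484, 2642 and 2404 CPM in Diff. hepatocytes and rose by 5.31 (SE 0.28, edgeR adjusted p = 7.82e-09). The enzymes of serine, glycine, tyrosine and histidine breakdown Sds (4.73), Gnmt (3.30), Hpd (3.18) and Hal (2.98) rose with it, whereas the lysine enzyme Aass (-1.54) fell. The urea cycle was uneven. Its enzymes Arg1 (5.16) and Ass1 (2.96) rose, Asl (0.48) and the activator enzyme Nags (0.77) were not called, and Otc (chromosome X from 10252305 to 10321024), ornithine transcarbamylase, went down from 103, 139, 155 and 166 CPM to 30.9, 52, 45.5 and 44.4 CPM, a log2 change of -1.70 (SE 0.17, edgeR adjusted p = 1.64e-06). Each Diff. library lay below each hepatoblast library for Otc.

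Genes of glucose production rose in most cases. In the list of gluconeogenesis, glycogen and fructose, 13 of 20 genes rose, among them Fbp1 (6.10), Pcx (3.11), the glucose-6-phosphate transporter Slc37a4 (2.71) and the branching enzyme Gbe1 (2.81). The hexokinases Hk1 (-1.21) and Hk2 (-0.90) were not called, though Hk1 was at 0.13 without hepatoblasts replicate 1 and Hk2 was called lower, at -1.02, without Diff. hepatocytes replicate 1. Of 25 glycolytic genes, 2 were called higher (8.00%, against 15.3% over all genes) and 4 lower (16.0%, against 14.4%). Pfkp (4.94) and Aldoc (1.02) rose, and the lactate dehydrogenase Ldhb (-4.27) and the lactate exporter Slc16a3 (-3.12) fell. Aldoc was not called without hepatoblasts replicate 1 or 2 or Diff. hepatocytes replicate 2 or 4, at 0.88 to 0.99. Ldhb measured 30.9, 55.2, 51.9 and 45.6 CPM in hepatoblasts and 2.07, 2.92, 1.91 and 2.61 CPM in Diff. hepatocytes.

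Genes of lipid oxidation and storage were called higher more often than the 15.3% over all genes. Fatty acid oxidation and ketogenesis had 10 of 29 genes (34.5%) higher, among them the carnitine gate Cpt1a (3.91) and the nuclear receptor of fatty acids Ppara (2.02). The hormone Fgf21 had 0 counts in the 4 hepatoblast libraries and 2.41, 8.85, 1.64 and 4.13 CPM in Diff. hepatocytes, with replicate 2 the highest. Lipid droplet genes rose in 11 of 27 cases (40.7%), with coat proteins Cidec (6.28), Plin5 (6.26) and Plin4 (4.53) and the lipase Pnpla2 (3.04). For cholesterol and fatty acid synthesis, 26 of 35 genes were not called, with 17.1% called higher and 8.57% lower beside 15.3% and 14.4% over all genes. The 6 that rose act on fatty acids or their regulation, as Thrsp (6.63), Acacb (3.44) and Me1 (3.41), and the 3 that fell, Mvk (-1.75), Idi1 (-1.15) and Mvd (-1.05), belong to the mevalonate pathway. Mvd was not called without hepatoblasts replicate 3 or 4, at -0.99 and -0.96. Library totals raised the latter count to 7.

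Enzymes for foreign compounds had the highest median among the lists of metabolism. Of 41 tested genes of cytochrome P450 drug metabolism, 27 rose, with a median log2 fold change of 2.61. With genes at 3 counts or fewer set at their bound the median was 2.2. None was called lower by edgeR or by DESeq2, 2 were lower at an unadjusted p under 0.05, and edgeR called 1 lower without hepatoblasts replicate 1. Under library totals the counts were 25 and 2. Their summed level was 388 to 631 CPM in hepatoblast libraries and 3109 to 3908 CPM in Diff. libraries. Cyp3a25 (chromosome 5 from 145977194 to 146009618) measured 0.289, 0.475, 0.225 and 0.297 CPM in hepatoblasts and 317, 487, 377 and 403 CPM in Diff. hepatocytes and rose by 10.23 (SE 0.28, edgeR adjusted p = 2.75e-11). Cyp2b10 (chromosome 7 from 25897620 to 25926624), the target of the receptor CAR, measured 0.353, 0.208, 0.225 and 0.231 CPM and then 149.6, 226, 216 and 177 CPM (9.53, SE 0.55, edgeR adjusted p = 1.47e-08). Both genes went from under 1 CPM in each hepatoblast library to over 100 CPM in each culture. The fatty acid hydroxylases Cyp4a14 (8.80) and Cyp4a10 (8.49) rose beside Cyp4a31, Cyp4a32 and Cyp4b1 in a run of 5 neighbours on chromosome 4 from 115486200 to 115647723. Members known for the pericentral zone of the adult liver, Cyp2e1 (0.20) and Cyp1a2 (0.70), were not called. Several of these genes have close copies, and 12.3% of the 75-base sequences of Cyp3a25 and 18.4% of those of Cyp4a10 occur in another gene.

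Conjugation, transport and bile acid genes also rose in many cases. Among conjugation enzymes 18 of 42 rose and 4 fell, a lower count that became 9 under library totals. Gsta1 (7.95), Sult1c2 (5.97) and Sult1a1 (5.30) rose, and Sult1b1 (-2.18) fell. In the family of sulfotransferases, which add sulfate to steroids and phenols, 10 of 14 members rose with a median of 3.79, or of 2.84 with genes at 3 counts or fewer set at their bound. Transporters of the sinusoidal and canalicular membranes rose in 14 of 21 cases. Slc10a1 (chromosome 12 from 80953183 to 80968705), which takes bile acids up from blood, measured 3.3, 3.21, 4.41 and 8.02 CPM in hepatoblasts and 302, 488, 388 and 351 CPM after culture, a rise of 6.34 (SE 0.30, edgeR adjusted p = 2.4e-09). The uptake carriers Slco1b2 (4.72) and Slco1a1 (4.52), the sterol exporters Abcg5 (6.10) and Abcg8 (4.36) and the canalicular phospholipid flippase Abcb4 (2.78) rose as well, Abcc2 (0.66) was not called, and the copper pump Atp7b (-1.81) fell.

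In bile acid synthesis and sensing, 12 of 18 genes rose. Cyp7a1 (chromosome 4 from 6265612 to 6275633), the rate-limiting enzyme of the pathway, went from 1.19, 1.4, 1.77 and 2.9 CPM to 43.2, 42.9, 49.4 and 45.7 CPM, with 4 close values after culture (4.64, SE 0.51, edgeR adjusted p = 4.61e-06). The later enzymes Cyp8b1 (3.97), Cyp27a1 (3.66) and Akr1d1 (3.10), the sensor Nr1h4 (2.61) and its target Nr0b2 (3.91) rose. Fgfr4, the receptor through which the gut hormone of the FGF family restrains Cyp7a1, fell from 37.1, 54.4, 61.8 and 61.5 CPM to 6.21, 7.39, 5.41 and 7.43 CPM (-3.02, SE 0.16, edgeR adjusted p = 8.32e-09), and its co-receptor Klb (-0.76) was not called. Antioxidant genes of the NRF2 response rose in 8 of 19 cases, led by Cbr3 (5.94), Slc7a11 (5.37) and Gpx2 (4.82), whereas Txnrd1 (-0.05) and Gclm (-0.01) were not called and G6pdx (-1.29) fell. Without hepatoblasts replicate 1 the value of Slc7a11 was 6.36. Iron genes moved both ways, with 5 of 18 higher (27.8%, against 15.3% over all genes) and 3 lower (16.7%, against 14.4%). Bmp6 (3.12) and the hepcidin regulators Hfe2 (1.76) and Tfr2 (1.46) rose, and Hmox1 (-1.88) fell.

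Of 34 transcription factors of the liver, 10 were called higher (29.4%, against 15.3% over all genes) and 3 lower (8.82%, against 14.4%). Among the 21 not called were Foxa1 (-0.68), Foxa2 (-0.64), Foxa3 (0.43), Onecut1 (0.37), Prox1 (-0.26), Hhex (0.14) and Cebpa (-0.41). The 10 that rose include the nuclear receptors Pparg (2.73), Nr1i3 (2.65) and Rxra (1.70), Klf15 (2.18) and Cebpb (1.35), and Tbx3 (-2.75), Nr2f1 (-1.73) and Onecut2 (-1.25) fell. Genes known to respond to glucocorticoids, a component of the medium, rose in 15 of 21 cases and fell in 4. Igfbp1 (chromosome 11 from 7197782 to 7202546), an IGF carrier under hormonal control, measured 180.2, 243, 266 and 307 CPM in hepatoblasts and 3892, 5438, 4825 and 5066 CPM in Diff. hepatocytes (4.27, SE 0.27, edgeR adjusted p = 3.46e-08). Klf9 (4.07), Ddit4 (3.97) and Fkbp5 (1.64) rose. The 4 that fell were Mt2 (-3.28), Gadd45g (-2.74), Nfkbia (-2.43) and Dusp1 (-1.11). Dusp1 was not called without hepatoblasts replicate 1, at -0.97. Clock genes had 6 of 19 members higher (31.6%, against 15.3% over all genes), among them Nr1d1 (1.87). In that list 1 was lower (5.26%, against 14.4%), Hlf (-1.92). The count of higher clock genes was 10 when the 8 libraries were fitted alone.

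Immediate-early genes, whose messages appear within minutes of a stimulus and include the AP-1 factors, fell in most cases. Of 25, 17 fell and 1 rose, Fosl1 (2.79). Fos (chromosome 12 from 85473890 to 85477273) measured 273, 395, 462 and 397 CPM in hepatoblasts and 6.68, 4.34, 3.54 and 3.59 CPM in Diff. hepatocytes, a log2 change of -6.39 (SE 0.31, edgeR adjusted p = 3.08e-09). Jun (chromosome 4 from 95049034 to 95052222) measured 546, 726, 834 and 745 CPM and then 42.2, 45.6, 38.6 and 36.8 CPM (-4.13, SE 0.23, edgeR adjusted p = 9.19e-09). Both were high in each of the 4 hepatoblast libraries, which were taken directly after the isolation, a step that cannot be told apart from the group. Fosb (-8.42), Egr1 (-3.25), Klf2 (-4.08), Nr4a1 (-3.20) and Zfp36 (-3.01) fell, while Myc (0.91), Fosl2 (0.62) and Klf4 (-0.70) were not called. Myc was called higher without hepatoblasts replicate 1, at 1.01, and Klf4 lower without Diff. hepatocytes replicate 1, at -1.03.

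In the list of growth factor receptors and ligands, 14 of 36 genes rose (38.9%, against 15.3% over all genes) and 7 fell (19.4%, against 14.4%). The receptor Egfr (chromosome 11 from 16752203 to 16918158) rose from 3.82, 4.19, 5.56 and 5.08 CPM to 198, 212, 196 and 217 CPM (5.46, SE 0.27, edgeR adjusted p = 4e-09). Its ligands Areg (6.46), Ereg (3.31), Btc (2.76) and Tgfa (2.06) and its relative Erbb3 (2.07) rose, while the ligands Hbegf (-0.46) and Egf (-0.23) were not called. Fgfr3 (-1.70), Igf1 (-1.53) and the feedback inhibitors Spry2 (-1.85), Spry4 (-1.49) and Dusp5 (-1.87) fell. Among the IGF-binding proteins 5 of 7 rose and Igfbp5 fell by 4.96. In TGF-beta and BMP signalling, 7 of 32 genes were called higher (21.9%, against 15.3% over all genes) and 4 lower (12.5%, against 14.4%). The ligands Inhbe (3.56), Bmp4 (2.86) and Tgfb2 (2.30) rose, and Bmp7 (-5.48) fell.

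Targets of Wnt signalling and markers of the pericentral zone fell in 10 of 16 cases, with a median of -2.87. With genes at 3 counts or fewer set at their bound it was -2.71. Lgr5 (chromosome 10 from 115450311 to 115587780), the receptor for R-spondins and itself a Wnt target, measured 9.85, 20.5, 21.5 and 17.8 CPM in hepatoblasts and 0.172, 0.215, 0.0886 and 0.0492 CPM in Diff. hepatocytes (-6.97, SE 0.47, edgeR adjusted p = 5.2e-08). The feedback inhibitors Axin2 (-4.44), Rnf43 (-3.21) and Znrf3 (-1.15), the factors Sp5 (-5.48) and Tcf7 (-3.70) and the ammonium channel Rhbg (-6.28) fell. The signal transducers Ctnnb1 (-0.45) and Tcf7l2 (-0.59) were not called, and Lhpp (2.22) rose. Interferon and antigen presentation genes had 4 of 30 members higher (13.3%, against 15.3% over all genes), such as Nlrc5. In that list 9 were lower (30.0%, against 14.4%), such as Cxcl10 (-3.14) and Irf1 (-2.33). Guanylate-binding and IFIT or IFITM proteins, a family of interferon-induced genes, fell in 13 of 22 cases.

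In the list of fetal and oncofetal factors 14 of 20 genes fell. Lin28b (chromosome 10 from 45376620 to 45486395), which blocks maturation of the let-7 miRNAs, measured 43.8, 50.9, 39.7 and 40.2 CPM in hepatoblasts and 4.96, 2.53, 4.08 and 3.3 CPM in Diff. hepatocytes (-3.55, SE 0.20, edgeR adjusted p = 1.14e-08). Hmga2 (-3.26), Trim71 (-3.18) and the cell surface proteoglycan Gpc3 (-1.74) fell, and Igf2bp3 (-0.74) and Nr6a1 (-0.66) were not called. The 2 members that rose, Sox4 (1.37) and Sox11 (1.13), are factors of progenitor cells in several tissues. Sox11 was not called without hepatoblasts replicate 1, 3 or 4 or Diff. hepatocytes replicate 1, 3 or 4, at 0.86 to 1.22.

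Of the 27 imprinted genes tested, which are expressed from 1 parental copy and often govern fetal growth, 14 fell. Igf2 (-1.72), Igf2r (-2.05), Cdkn1c (-2.13), Peg10 (-2.55) and Phlda2 (-3.80) fell, whereas H19 (0.58), Peg3 (0.47) and Grb10 (-0.03) were not called. The deepest falls belonged to 1 domain. From Dlk1 to Dio3, on chromosome 12 from 109452823 to 110281097, 40 genes were tested, of which 32 fell and 1 rose, with a median of -4.15. Dlk1 was the protein used to isolate the hepatoblasts, so that its own level in them was set by the design. Meg3 (chromosome 12 from 109541001 to 109571726), a long non-coding RNA of the maternal copy, measured 1049, 1745, 1608 and 1764 CPM in hepatoblasts and 106, 67.5, 79.7 and 63.1 CPM in Diff. hepatocytes (-4.29, SE 0.28, edgeR adjusted p = 4.32e-08). Rian (chromosome 12 from 109603940 to 109661716) followed it, at 813, 1425, 1283 and 1355 CPM and then 73.7, 40.9, 48.5 and 38.2 CPM (-4.60, SE 0.29, edgeR adjusted p = 3.43e-08), and Mirg (-3.49) and Rtl1 (-4.48) fell. At the far end of the domain Dio3 (0.68) was not called and Dio3os (1.60) rose. Of 36 miRNA genes tested in all, 18 fell, and 16 of these lie in this domain. Poly(A) libraries hold the longer precursors of such genes at low counts and not the mature miRNAs, and some of these genes lie inside Mirg or Rian.

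Genes of cell division fell nearly without exception. Of 54 genes of mitosis and cytokinesis 53 fell, with a median of -3.61, and of 57 genes of DNA replication 55 fell, with a median of -2.82. The counts without hepatoblasts replicate 1 were 53 and 55. Mki67 (chromosome 7 from 135689784 to 135716361), a protein of the surface of mitotic chromosomes, measured 1023, 531, 481 and 472 CPM in hepatoblasts and 42.1, 21.6, 16.7 and 18.2 CPM in Diff. hepatocytes, a log2 change of -4.67 (SE 0.36, edgeR adjusted p = 1.73e-07). Mcm5 (chromosome 8 from 75109569 to 75128439), a subunit of the replicative helicase, measured 243, 142, 124 and 122 CPM and then 13, 6.91, 8.55 and 6.69 CPM (-4.16, SE 0.30, edgeR adjusted p = 9.85e-08). In both groups replicate 1 was the highest of the 4 libraries for these 2 genes. The cyclins Ccnb1 (-4.29) and Ccna2 (-4.28), the kinase Cdk1 (-3.42), the ubiquitin ligase partner Ube2c (-4.26), the licensing factor Cdc6 (-4.44) and the activator E2f2 (-5.03) fell, and Pttg1 (-0.25) was the 1 mitotic gene not called. In bulk RNA, fewer dividing cells and less of these messages in each cell cannot be told apart.

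Regulators that hold the cycle back moved both ways. Among D cyclins, CDK inhibitors and p53 targets, 12 of 28 rose (42.9%, against 15.3% over all genes) and 4 fell (14.3%, against 14.4%). These counts became 8 and 6 under library totals. Cdkn1a (chromosome 17 from 29090976 to 29100727), the inhibitor p21, measured 14.4, 11.1, 12 and 11.2 CPM in hepatoblasts and 182, 189.5, 175 and 196 CPM after culture (3.93, SE 0.45, edgeR adjusted p = 6.2e-06). The inhibitors Cdkn2b (5.19) and Cdkn2a (2.54) and the p53 targets Trp53inp1 (3.99), Eda2r (3.74) and Phlda3 (3.01) rose, while Mdm2 (0.11), Bax (0.65) and Cdkn1b (-0.09) were not called. Cyclin D1, counted among the Wnt targets, fell (-3.33). Replication-dependent and variant histones fell in 36 of 48 cases. These include 4 runs of 5 or more neighbours on chromosome 13. Poly(A) selection recovers little of most histone messages, which lack a poly(A) tail. DNA methylation and Polycomb genes fell in 12 of 28 cases, led by the maintenance factors Uhrf1 (-4.40), Hells (-3.78) and Dnmt1 (-2.82) and by Ezh2 (-2.30), whereas Dnmt3a (-0.84) and Ezh1 (0.42) were not called and Cbx7 (3.19) rose.

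Known sequence elements were found at different shares in the promoters of these groups. A window from 250 bases before to 50 bases after the start site, from RefSeq on GRCm38.p6, was found for 11199 of 14284 protein-coding genes tested, and it was searched on both strands. The CCAAT box (CCAAT) and the cell cycle homology region (CHR, TTTGAA) occurred together in 59.1% of the 44 windows of mitotic genes and in 4.95% of all windows. They occurred together in 8.54% of the windows of genes called lower, 4.42% of those called higher and 4.29% of those not called. An E2F site (TTTGGCGC, TTTCCCGC or TTTCGCGC, which can overlap each other) was in 31.8% of the 44 windows of replication genes and in 3.39% of all. A GATA site (AGATAA) was in 40.9% of the 22 windows of erythroid markers and in 6.83% of all, and an HNF1 site (GTTAATNAT) in 17.2% of the 29 windows of plasma carriers and in 0.625% of all. A TATA box (TATAAA) was in 47.2% of the 36 windows of P450 genes and in 7.75% of all, and a GC box (GGGCGG) in 25% of these, 6.9% of the plasma carriers and 62.2% of all. These shares describe letters in the windows and not binding of a factor. An AP-1 site (TGANTCA) was in 24.1% of the plasma carrier windows and 5.13% of all, and the C/EBP site (TTGCGCAA, TTGTGCAA or TTGCACAA) and the E-box (CACGTG) were in 1.16% and 9.72% of all windows.

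The 200 bases before the start site are printed, 5′ to 3′ on the strand of the gene, for 2 mitotic genes, 2 replication genes, 1 erythroid gene and 3 plasma carriers whose windows hold these elements. Capitals mark the CCAAT boxes and CHR elements in Mki67 and Ube2c, the E2F sites in Cdc6 and Mcm5, the GATA site in Kel and the HNF1 sites in Cp, Gc and Alb, on either strand. Adjoining capitals in Ube2c and Mcm5 are matches that overlap, 1 on each strand.
Mki67 (chr7:135716380-135716579, minus strand): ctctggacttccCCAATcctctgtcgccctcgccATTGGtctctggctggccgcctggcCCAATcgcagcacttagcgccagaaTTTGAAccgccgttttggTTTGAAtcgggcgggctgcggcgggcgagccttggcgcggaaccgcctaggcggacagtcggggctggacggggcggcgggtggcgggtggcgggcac
Ube2c (chr2:164769729-164769928, plus strand): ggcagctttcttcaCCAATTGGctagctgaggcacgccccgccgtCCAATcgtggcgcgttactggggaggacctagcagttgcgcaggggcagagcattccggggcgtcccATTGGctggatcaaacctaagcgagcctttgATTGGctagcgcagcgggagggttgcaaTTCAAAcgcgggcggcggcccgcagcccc
Cdc6 (chr11:98907951-98908150, plus strand): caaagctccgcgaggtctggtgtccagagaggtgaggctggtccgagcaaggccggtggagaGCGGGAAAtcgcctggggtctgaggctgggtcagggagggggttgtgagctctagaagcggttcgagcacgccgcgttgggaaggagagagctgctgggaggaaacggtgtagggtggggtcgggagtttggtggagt
Mcm5 (chr8:75109309-75109508, plus strand): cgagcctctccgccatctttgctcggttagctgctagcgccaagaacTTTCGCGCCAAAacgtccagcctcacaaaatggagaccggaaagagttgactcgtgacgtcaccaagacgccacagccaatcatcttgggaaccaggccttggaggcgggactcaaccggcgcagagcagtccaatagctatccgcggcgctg
Kel (chr6:41704326-41704525, minus strand): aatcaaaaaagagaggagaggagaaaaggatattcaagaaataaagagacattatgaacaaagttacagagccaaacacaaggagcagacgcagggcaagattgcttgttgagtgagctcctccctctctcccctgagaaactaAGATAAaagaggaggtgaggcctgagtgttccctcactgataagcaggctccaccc
Cp (chr3:19956854-19957053, plus strand): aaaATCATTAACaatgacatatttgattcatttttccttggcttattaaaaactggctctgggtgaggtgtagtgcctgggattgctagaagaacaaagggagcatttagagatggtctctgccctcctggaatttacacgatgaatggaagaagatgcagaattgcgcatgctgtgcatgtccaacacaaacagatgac
Gc (chr5:89457899-89458098, minus strand): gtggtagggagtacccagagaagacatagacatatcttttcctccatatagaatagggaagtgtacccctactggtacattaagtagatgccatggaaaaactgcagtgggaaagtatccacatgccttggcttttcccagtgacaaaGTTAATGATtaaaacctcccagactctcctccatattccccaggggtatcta
Alb (chr5:90460670-90460869, plus strand): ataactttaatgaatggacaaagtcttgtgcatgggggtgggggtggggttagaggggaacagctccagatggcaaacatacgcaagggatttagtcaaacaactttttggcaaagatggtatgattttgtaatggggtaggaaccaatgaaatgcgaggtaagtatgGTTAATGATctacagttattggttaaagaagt

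In Mki67 the CHR elements begin 116 and 98 bases before the start site, downstream of 3 CCAAT boxes at 188, 166 and 141 bases. In Ube2c the CHR element lies 29 bases before the start site and the nearest CCAAT box 57 bases before it. The HNF1 site of Alb begins 32 bases before the start site and that of Gc 52 bases before it. Gc and Cp rose, by 2.97 and 6.31, while Alb with the same element was not called.

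**Figure D4:**
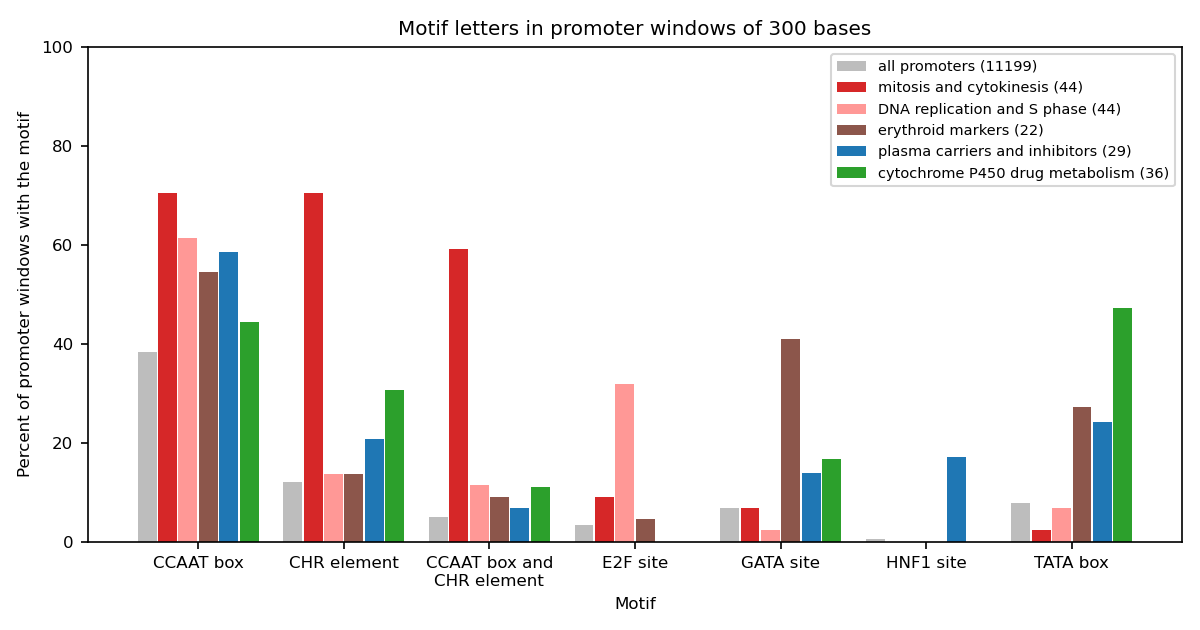
Percent of promoter windows of 300 bases (vertical axis) that hold each motif on either strand, for all 11199 windows (grey) and for 5 gene lists with the number of windows in brackets. The CCAAT box with the CHR element stands out for mitotic genes (59.1%), the E2F site for replication genes (31.8%) and the GATA site for erythroid markers (40.9%).

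Markers of other cells of the fetal liver were measured beside each of these groups, since the isolation enriches hepatoblasts and does not remove all neighbours. Erythroid genes fell in 29 of 30 cases, with a median of -6.66 and of -5.79 with genes at 3 counts or fewer set at their bound. Their summed level, 593 to 4977 CPM in hepatoblasts, was 35.5 to 61.8 CPM in Diff. hepatocytes. Slc4a1 (chromosome 11 from 102348824 to 102366203), the anion exchanger of red cells, measured 762, 147, 117 and 84.5 CPM in hepatoblasts and 1.03, 0.386, 0.222 and 0.394 CPM in Diff. hepatocytes (-9.06, SE 0.87, edgeR adjusted p = 1.26e-06). Replicate 1 held most of it. The blood group protein Kel (-9.30), the receptor Epor (-4.98) and the factors Gata1 (-4.74) and Klf1 (-3.65) fell. Without that replicate the log2 fold changes were -7.80 for Slc4a1, -8.06 for Kel, -3.65 for Epor, -3.42 for Gata1 and -2.32 for Klf1. Without Diff. hepatocytes replicate 1 they were -9.68 for Slc4a1 and -12.51 for Kel. Of the globin messages Hbb-bs fell by 5.74, at -4.59 without hepatoblasts replicate 1 and -6.60 without Diff. hepatocytes replicate 1. The values of the adult globins are uncertain, since Hba-a1, Hba-a2 and Hbb-bt share 67.9%, 84.6% and 56.6% of their 75-base sequences with another gene. For Hbb-bt that gene is Hbb-bs, whose own share was not checked. The embryonic globin Hbb-y measured 5.93, 7.55, 3.6 and 3.79 CPM in hepatoblasts and was at 3 counts or fewer in each Diff. library.

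Markers of granulocytes, progenitors and lymphocytes were called lower or not called. None of 14 megakaryocyte markers was called by edgeR or DESeq2 and 1 passed an unadjusted p of 0.05, and their summed level was 23.8 to 99.0 CPM in hepatoblasts and 36.8 to 100.4 CPM in Diff. hepatocytes. Without hepatoblasts replicate 1, edgeR called 1 of them higher. For granulocytes, mast cells and progenitors, 9 of 20 markers fell, among them Myb (-4.72), Kit (-3.66) and Mpo (-4.32). That count was 6 without hepatoblasts replicate 1, where the summed level was 645 CPM against 52.2 to 83.5 CPM in the other 3 hepatoblast libraries, and 14 without hepatoblasts replicate 4. Without replicate 1 the values were -3.18 for Myb, -2.16 for Kit and -2.41 for Mpo. Lymphoid markers fell in 5 of 10 cases at summed levels of 6.04 to 12.8 CPM and then 2.17 to 3.19 CPM, and in 2 or 3 without any 1 of the Diff. libraries.

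Of 23 macrophage markers, 2 were called higher (8.7%, against 15.3% over all genes) and 4 lower (17.4%, against 14.4%). The general markers C1qa (-0.12), C1qb (0.05), Csf1r (-0.30), Cd68 (-0.34) and Lyz2 (-0.05) were not called, and the summed level of the list was 146 to 620 CPM in hepatoblasts and 55.7 to 399 CPM in Diff. hepatocytes. Without Diff. hepatocytes replicate 1 C1qa was at -1.11, C1qb at -0.77 and Csf1r at -1.02, and without hepatoblasts replicate 1 they were at 0.58, 0.74 and 0.53 and Lyz2 at 1.10. The members that fell were Timd4 (-6.33), Marco (-3.78), Cd5l (-3.61) and Clec4f (-2.69), and those that rose were Cd163 and Vsig4 (4.63), which like Timd4 and Clec4f marks resident macrophages of the liver. Timd4 measured 11.1, 2.29, 3.31 and 3.04 CPM in hepatoblasts and 0.129, 0, 0.0443 and 0.0492 CPM in Diff. hepatocytes. It was at 3 counts or fewer in each Diff. library, so the direction of its change was fixed in advance by the filter. Against 3 counts a library its fall is at least 36.6-fold, a log2 bound of -5.2. The scavenger receptor Cd163, known to respond to glucocorticoids, rose from 0.385, 0.0297, 0.225 and 0.231 CPM to 8.32, 4.68, 1.2 and 1.72 CPM (4.18, SE 0.72, edgeR adjusted p = 0.000241). Both genes that rose were highest in Diff. hepatocytes replicate 1, the Diff. library with the highest summed macrophage level, whose part in their rise was not tested. Without it the values were 3.53 for Cd163, 3.67 for Vsig4, -7.11 for Timd4 and -3.29 for Clec4f. Without hepatoblasts replicate 1 they were 5.36 for Vsig4, -5.54 for Timd4, -3.15 for Marco, -2.85 for Cd5l and -2.08 for Clec4f.

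Endothelial markers fell in 19 of 28 cases, with a median of -2.48 and of -1.92 with genes at 3 counts or fewer set at their bound. Stab2 (chromosome 10 from 86841198 to 87008025), a scavenger receptor of sinusoids, measured 41.5, 18.4, 9.84 and 10.6 CPM in hepatoblasts and 1.29, 1.67, 0.842 and 1.28 CPM in Diff. hepatocytes (-3.97, SE 0.49, edgeR adjusted p = 1.38e-05). Cdh5 (-3.85), Lyve1 (-4.11) and Kdr (-3.52) fell, whereas Pecam1 (-0.58) and Eng (0.74) were not called, and the summed level of the list was 171 to 338 CPM before and 131 to 170 CPM after. Without hepatoblasts replicate 1 the values were -3.33 for Stab2, -3.22 for Cdh5 and -2.93 for Kdr. Mesenchymal markers split, with 6 of 24 higher and 6 lower, and 3 and 7 under library totals. Acta2 (chromosome 19 from 34241090 to 34255590), smooth muscle actin, rose from 7.63, 9.98, 14.2 and 9.83 CPM to 380.4, 138, 275 and 147 CPM (4.50, SE 0.33, edgeR adjusted p = 1.27e-07), with Tagln (3.94) and Thy1 (3.80). Reln, a marker of stellate cells, fell from 586, 954, 967 and 932 CPM to 62.1, 98.5, 94.4 and 116 CPM (-3.21, SE 0.25, edgeR adjusted p = 1.77e-07), and Rgs5 (-3.82) with it. The collagen Col1a2 (0.65) and the receptors Pdgfra (-0.31) and Pdgfrb (-0.44) were not called. Of 7 mesothelial markers, Msln (4.35) and Upk1b (1.61) rose and Upk3b (-1.36) fell. Upk1b was not called without hepatoblasts replicate 2 or 4 or Diff. hepatocytes replicate 1, 3 or 4, at 1.39 to 1.62.

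**Figure D5:**
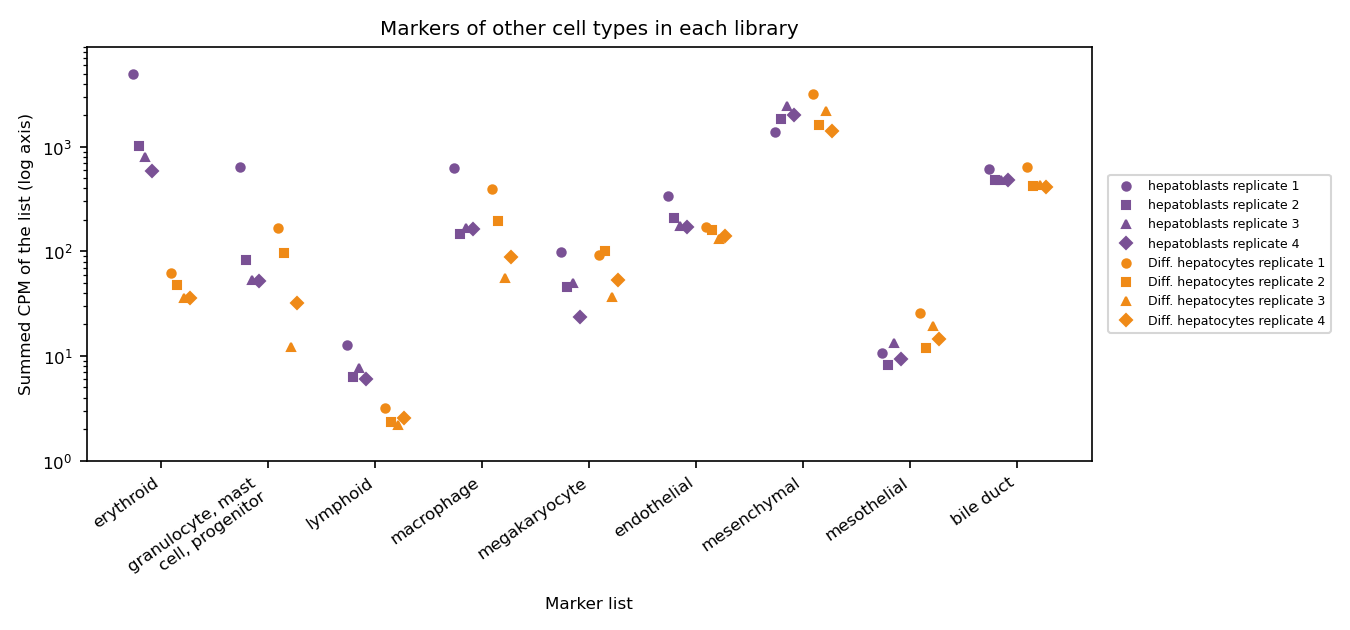
Summed CPM of the markers of 9 other cell types (log axis) in each library, with hepatoblasts in purple, Diff. hepatocytes in orange and a symbol for each replicate. Erythroid and lymphoid sums lie apart between the groups, endothelial sums nearly touch (171 against 170 CPM) and the others overlap, and hepatoblasts replicate 1 is the highest for erythroid, granulocyte, macrophage and endothelial markers.

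Genes of the other fate of hepatoblasts, the bile duct cell, rose in 10 of 20 cases. Krt19 (chromosome 11 from 100140810 to 100148665), a keratin of ducts, measured 1.57, 2.17, 1.74 and 1.48 CPM in hepatoblasts and 88.6, 24.7, 39.4 and 35.8 CPM in Diff. hepatocytes (4.75, SE 0.53, edgeR adjusted p = 5.46e-06), highest in replicate 1. Krt7 (4.74), Krt23 (4.82), Epcam (3.06) and Jag1 (1.58) rose, the factor Sox9 (0.01) was not called, and Hes1 (-3.76) and Prom1 (-5.82) fell. Without Diff. hepatocytes replicate 1 the value of Krt7 was 4.05. The summed level of the list overlapped between the groups, at 479 to 609 CPM in hepatoblasts and 417 to 641 CPM in Diff. hepatocytes.

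Genes of the cytoskeleton and of mechanical signalling through YAP and SRF rose in 20 of 49 cases and fell in 1, Actg1 (-1.02). The value of Actg1 is uncertain, since 33.5% of its 75-base sequences occur in another gene. Actg1 was not called without hepatoblasts replicate 2 or 3 or Diff. hepatocytes replicate 2 or 4, at -0.98 to -0.94, and 2 genes were called lower without hepatoblasts replicate 4 or Diff. hepatocytes replicate 1 or 3. Ankrd1 (7.31), Ccn2 (5.12), Cnn1 (6.19) and Tpm2 (3.16) rose, and Ccn1 (-0.45), Yap1 (-0.09) and Actb (-0.52) were not called. Ankrd1, a target of YAP, was at 0.128, 0.267, 0.257 and 0.198 CPM in hepatoblasts and at 66.6, 17.3, 32.9 and 22.1 CPM after culture, and like Acta2 and Krt19 it was highest in Diff. hepatocytes replicate 1. The summed level of the list was 8637 CPM in that culture, 5025 to 6016 CPM in the other 3 and 4953 to 5350 CPM in hepatoblasts. Among collagens 15 of 37 rose, including the 6 chains of basement membrane collagen IV. Col4a1 (chromosome 8 from 11198423 to 11312826) measured 102, 103, 144 and 119 CPM in hepatoblasts and 907, 389, 626 and 465 CPM in Diff. hepatocytes (2.35, SE 0.31, edgeR adjusted p = 2.29e-05).

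Junctions and apical polarity, which build the bile canaliculus, had 11 of 50 genes called higher (22.0%, against 15.3% over all genes) and 3 lower (6.00%, against 14.4%). Those not called include Cdh1 (0.38), Tjp1 (0.82) and Pard3 (-0.27). The tight junction protein Marveld3 (chromosome 8 from 109947914 to 109962203) rose from 0.0962, 0.0891, 0.0965 and 0.132 CPM to 28, 27.9, 27.4 and 23 CPM (7.94, SE 0.18, edgeR adjusted p = 2.35e-11), with small spread in both groups. Cldn3 (5.15), Cldn2 (3.48), the gap junction proteins Gjb2 (2.82) and Gjb1 (1.31), the canalicular protein Ceacam1 (2.70) and the polarity protein Crb3 (1.24) rose, and the apical peptidases Dpp4 (-2.81) and Anpep (-1.75) fell. Lysosomal and autophagy genes rose in 11 of 36 cases and fell in 1, a direction that depends on the scaling, since library totals gave 4 higher and 4 lower. Without hepatoblasts replicate 1, 2 were called lower. In the list of secretory folding and the unfolded protein response 8 of 35 were called higher (22.9%, against 15.3% over all genes), or 4 under library totals. Trib3 (5.04) led them and was at 5.78 without hepatoblasts replicate 1. The chaperone Hspa5 (0.23) and the factor Xbp1 (-0.01) were not called.

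Genes of the machinery that all cells share were mostly not called. None of 84 genes of cytosolic ribosomal proteins was called by edgeR or DESeq2, with a median of -0.01, and 14 were higher and 12 lower at an unadjusted p under 0.05. Neither tool called any of 20 cytosolic tRNA synthetases, of which 10 were higher and 6 lower at an unadjusted p under 0.05, or any of 7 protein genes of the mitochondrial genome, of which 1 was higher. Library totals called 3 of the synthetases lower, and 2 were called higher without hepatoblasts replicate 1. On the TMM scale 74 of 76 mitochondrial ribosomal proteins and 45 of 48 proteasome subunits were not called. Of 79 nuclear genes of the respiratory chain 8 rose (10.1%, against 15.3% over all genes), or 3 under library totals, and 1 fell (1.27%, against 14.4%). Of 31 hnRNP and SR proteins, which package and splice RNA, 13 fell. Hnrnpa2b1 (chromosome 6 from 51460932 to 51469894) measured 1121, 1093, 1088 and 1028 CPM in hepatoblasts and 411, 411, 412 and 413 CPM in Diff. hepatocytes, a fall with little spread in either group (-1.39, SE 0.08, edgeR adjusted p = 1.16e-08). Of 47 genes of ribosome biogenesis 4 were called lower (8.51%, against 14.4% over all genes), or 9 under library totals. For nucleotide, folate and serine synthesis 4 of 25 were called lower (16.0%), among them Phgdh (-2.18), or 8 under library totals and 2 without Diff. hepatocytes replicate 1. The value of Phgdh is uncertain, since 35.8% of its 75-base sequences occur in another gene.

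Over all genes, 15.3% were called higher and 14.4% lower. Of the families defined by gene symbol, solute carriers had 68 of 295 called higher (23.1%) and 43 lower (14.6%, near the share over all genes). Library totals turned these counts to 57 and 63. Zinc finger proteins of the Zfp series had 36 of 345 higher (10.4%) and 37 lower (10.7%), both under the shares over all genes, or 19 and 55 under library totals. Serpins rose in 17 of 34 cases (50.0%), and Serpina3g, Serpina3i, Serpina3k, Serpina3m and Serpina3n formed a run of 5 neighbours on chromosome 12 from 104236245 to 104414329. Annexins and S100 proteins, which bind calcium at membranes, rose in 10 of 20 cases (50.0%) and claudins in 6 of 13 (46.2%). Carbonic anhydrases fell in 6 of 12 cases (50.0%), among them Car3 (-8.21), and kinesins, many of them motors of the spindle, in 13 of 34 (38.2%). Semaphorins, ephrins and their receptors fell in 13 of 44 (29.5%).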

How the data were processed

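RNA was sequenced from 12 mouse liver cell samples, 4 each of hepatoblasts, in vitro differentiated hepatocytes and mature hepatocytes. Per the labels, RNA was purified on columns with DNase, enriched on poly-dT beads, made into libraries with a NEBNext Ultra RNA kit and read as 75 bp single reads on a HiSeq 2500. The authors deposited raw read counts per gene. They mapped reads to GRCm38 with STAR 2.5.2b and counted on genes of Ensembl release 92. The submitters' notes also name FastQC 0.11.2, Picard 2.10.2 and DESeq2 1.22.2. The counting strand and any removal of duplicates are not given in the sources used here, so overlapping and antisense genes may share reads.

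Of 53715 genes listed, those with more than 10 counts in any of the 8 libraries compared were tested (17256). The replicates are described as separate biological replicates, and no pair of libraries agreed within sampling noise. edgeR 4.0.16 (R 4.3.3, limma 3.58.1) fitted the quasi-likelihood model with TMM scaling and group alone to all 12 libraries, p-values were adjusted by the Benjamini-Hochberg method, and a gene was called where the adjusted p was below 0.01 and the log2 fold change beyond 1 in size. Standard errors were taken as the absolute log2 fold change over the square root of the F statistic. Where a group was at 3 counts or fewer in each library, log2 fold changes in parentheses are still the fitted values. For such genes a bound against 3 counts a library was also computed. Such bounds cover counting error only. Libraries of the 8 samples held 19581551 to 25216977 counts, and CPM are relative to TMM-adjusted library sizes of 20320401 to 33659791. On simulated counts for 16116 of these genes with 200 changed, 53 of 67 genes changed by 1.5 in log2 were called, 67 of 67 changed by 2.5, 63 of 66 changed by 4, and 2 unchanged genes. Far fewer genes were changed there than the 5119 called in the data, so these rates need not hold for the data.

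Positions and gene types come from GENCODE M21 (17242 of the 17256 genes matched) and promoters from RefSeq on GRCm38.p6. Pandas 2.3.3 on Python 3.11.15 was used for lists and motifs. The gene lists, families, motifs and members were chosen with earlier results of these data known, so their counts are descriptions with no test of a list. In each list the named genes are the called members with the 3 largest fold changes in each direction, at a mean of at least 10 CPM and with groups that do not overlap, and the 3 most abundant members not called, together with the 25 largest changes over all genes in each direction and the 15 most abundant genes of each group. Other members were named after their values were seen. The check for shared sequence asked which 75-base stretches of a gene's transcripts occur in another gene, and 17 of 394 genes checked shared over 20%. Alternatives were DESeq2 1.42.0, tests with the fold change threshold inside them, other scalings, filters and thresholds, a fit of the 8 libraries, the replicate number as a block and the omission of each library.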

Additional observations from a re-analysis of the deposited data

Results flagged for a closer look

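In 17 of 124 groups of 4 libraries checked, 1 library lay apart from the other 3 by a gap, relative to the range, above Dixon's critical value, where chance gives about 1 group in 20. Of these, 12 concern replicate 1 of the hepatoblasts. It was the highest of its group in markers of other blood cells, with summed levels of 4977 CPM for erythroid markers, 620 CPM for macrophage markers and 645 CPM for granulocyte, mast cell and progenitor markers, and with 762 CPM for Slc4a1 and 11.1 CPM for Timd4. It was also the highest for the dividing cell genes Mki67 (1023 CPM) and Mcm5 (243 CPM), for bile duct markers (609 CPM) and for Cyp2b10, at 0.353 CPM. The same library was the lowest for Shbg (56.9 CPM), for Reln (586 CPM) and for Cited1 (77.1 CPM), a transcriptional co-regulator. Whether a larger share of blood cells or of dividing cells in that pool accounts for these levels was not tested.

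Among Diff. hepatocytes, replicate 1 was the highest for the summed levels of mitosis (534 CPM), DNA replication (591 CPM) and bile duct markers (640.5 CPM). Replicate 4 was the lowest for Marveld3, at 23.03 CPM, and replicate 2 for the long non-coding RNA Malat1, at 3174 CPM.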

How the results depend on the processing

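The counts of 2634 genes called higher and 2485 called lower moved by over 1.5 times under 4 of the alternatives. When the test itself was made against the fold change threshold, they were 1527 and 1434 by edgeR's glmTreat and 1304 and 1201 by DESeq2. With at least 10 counts required in each of the 8 libraries, a filter that leaves fewer genes to test, they were 1740 and 1566. When 0.05 was the limit of the adjusted p and no fold change was asked for, they were 5192 and 5365. DESeq2 with the same thresholds gave 2691 and 2531 (its adjusted p was missing for 30 genes), its size factors in edgeR 2640 and 2485, no filter 2740 and 2681, the filterByExpr filter 2360 and 2225, and the 8 libraries alone 2615 and 2459. Leaving out 1 library at a time gave 2414 to 2661 higher and 2286 to 2476 lower. Over the 580 genes followed and all alternatives, 11663 of 12050 values kept direction and side of the threshold, 230 were no longer called, 157 became called, and 0 changed sign as a called value. Of the 400 called, 27 lost the call in at least 1 setting with the same thresholds. Of 1974 counts over the 47 lists, 1759 stayed within 1.5 times.

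The groups share replicate numbers, but nothing in the labels says that a number marks a shared pool or day. Deviations from the group means, over 13011 genes, correlated between libraries of the same number by 0.396, -0.0911, 0.37 and 0.299 for numbers 1 to 4. Hepatoblasts replicates 1 and 3 correlated best with the Diff. library of the same number. Replicates 2 and 4 correlated best with Diff. hepatocytes replicate 3, at 0.221 and 0.371. These values do not decide whether a number marks a pair, and without a label the numbers were not taken as pairs. With the replicate block the counts were 2634 higher and 2554 lower over 12 libraries, and 2605 and 2599 over 8.

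Genes under about 1 CPM rest on few counts, and their fold changes depend on the default prior count of the edgeR fit. Group, culture, medium and time of harvest cannot be told apart. RNA per cell was not measured, so all changes are relative to the other genes of a library.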

Other observations

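Of 516 long intergenic non-coding genes tested, 165 (32.0%) were called higher and 70 (13.6%) lower, and of 587 antisense genes 115 and 57, against 14.6% and 15.4% of 14284 protein-coding genes. Fewer small RNA genes were called higher, 1 of 66 snoRNA genes (1.52%) and 3 of 36 miRNA genes (8.33%). Called lower were 11 snoRNA genes (16.7%, near the 15.4% of protein-coding genes) and 18 miRNA genes (50.0%). Malat1, a nuclear RNA, measured 852, 944, 971 and 1013 CPM in hepatoblasts and 3699, 3174, 3704 and 3702 CPM in Diff. hepatocytes, a log2 fold change of 1.92 (edgeR adjusted p = 3.69e-05). Neat1, the scaffold of nuclear paraspeckles, measured 52.5, 72, 58.2 and 65.7 CPM and then 374, 479, 429 and 517 CPM (2.86, edgeR adjusted p = 1.11e-05). Both groups of 4 lay apart for either gene. The ribosomal RNA gene CT010467.1 took 9056, 8557, 15693 and 13248 CPM in hepatoblasts and 48201, 32959, 53235 and 48824 CPM in Diff. hepatocytes, so its share of the counts differed between the groups in libraries selected for poly(A). Of its 75-base sequences 35.2% occur in another gene.

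A steep rise from near 0 in hepatoblasts was that of Vmn2r3, annotated as a vomeronasal receptor on chromosome 3. It measured 0, 0.0297, 0.0322 and 0 CPM in hepatoblasts and 103, 68.9, 109 and 115 CPM in Diff. hepatocytes, at least 1041-fold higher against 3 counts a library, and 1.27% of its 75-base sequences occur in another gene. Whether these counts belong to a transcript of a neighbouring or unannotated locus was not tested. Etnppl, an enzyme of phosphoethanolamine breakdown, measured 0.0962, 0.0594, 0.193 and 0.165 CPM and then 44, 91.6, 59.1 and 59.1 CPM (8.91, edgeR adjusted p = 3.32e-10). In the other direction Mmd2 went from 69.5, 104, 114 and 114 CPM to 0.431, 0.258, 0.399 and 0.394 CPM (-8.06, edgeR adjusted p = 5.55e-09) and Cited1 from 77.1, 135, 133 and 132 CPM to 0.69, 0.429, 0.487 and 0.246 CPM (-7.97, edgeR adjusted p = 1.34e-10). These genes are in none of the lists and were singled out after their values were seen.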
